A study of Arabidopsis thaliana with 6 samples.

Results

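The 9 ACC synthase (ACS) genes of *Arabidopsis* were examined for histone H3 lysine 9 acetylation (H3K9Ac) in *ein2-5* seedlings. They are ACS1, ACS2, ACS4, ACS5, ACS6, ACS7, ACS8, ACS9 and ACS11, which were chosen by name, and all 9 were found among the 27444 protein coding genes on the nuclear chromosomes. A peak was counted for a gene when it overlapped the gene body or the 500 bp upstream by at least 1 bp. The seedlings carried *ein2-5*, a loss-of-function allele of EIN2, a membrane protein without which the hormone signal does not reach the nucleus, so both groups are ethylene insensitive. Whole 3-day-old seedlings grown in the dark were exposed for 4 h to hydrocarbon-free air or to air with 10 ppm ethylene, and each treatment has 2 H3K9Ac libraries and 1 control library. The authors merged both H3K9Ac libraries before calling peaks with MACS2, which leaves 1 peak list per treatment, no spread between replicates and no test of the treatment. Wild type seedlings were not analysed here.

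ACC synthase makes 1-aminocyclopropane-1-carboxylic acid (ACC) from S-adenosylmethionine, and ACC oxidase turns ACC into ethylene. The ACC synthase step usually limits the rate, and the enzymes work as dimers. The genes fall into types by the C-terminal end of the protein, which sets how it is degraded. Type 1 enzymes (ACS1, ACS2 and ACS6) carry target sites of MAP kinases and of calcium-dependent kinases there, type 2 enzymes (ACS4, ACS5, ACS8, ACS9 and ACS11) keep only the calcium-dependent kinase site and a stretch bound by the ubiquitin ligase component ETO1, and the type 3 enzyme (ACS7) has neither. H3K9Ac is a mark that lies mostly just downstream of the transcription start site (TSS) of active genes.

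Few ACC synthase genes carried a called H3K9Ac peak. In air, 3 of the 9 genes had one (ACS5, ACS6 and ACS8), beside 60.9% of all coding genes. In ethylene, 1 of the 9 had one (ACS6), beside 46.0% of all coding genes. ACS6 was therefore the 1 member marked in both lists (45.8% of coding genes), ACS5 and ACS8 were the 2 marked in air only (15.1%), and the other 6 had a peak in neither list (38.9%). No member was marked in ethylene only (0 of 9, beside 0.128% of coding genes). The members are 1693 to 2701 bp long, and among the 8599 coding genes within this range of length the shares with a peak were 69.1% in air and 53.8% in ethylene. By type, 1 of 3 genes was marked in air in type 1, 2 of 5 in type 2 and 0 of 1 in type 3. An unmarked gene here is a gene without a call, where the mark may still be present below the threshold, and in whole seedlings a mark in few cells cannot be told apart from a weak mark in many.

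**Figure D1:**
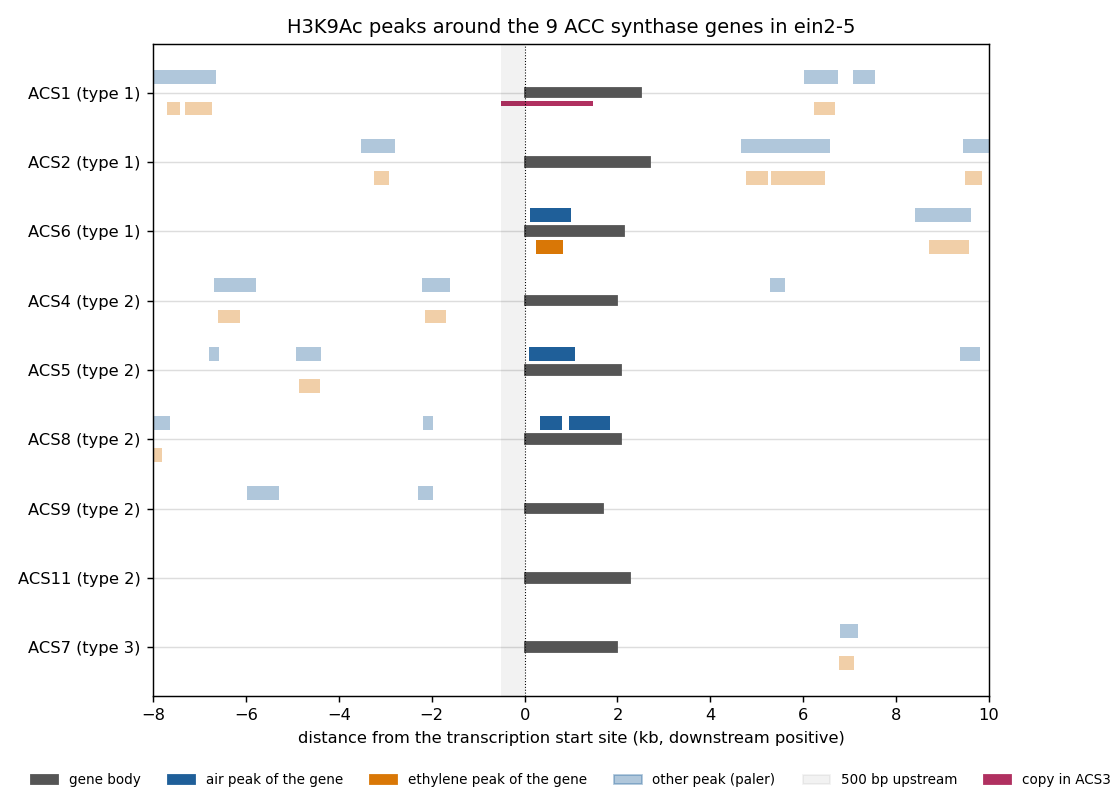
Peaks around the 9 genes, drawn to scale by distance from the TSS in kb with the gene running to the right. Grey bars are gene bodies, blue bars above them air peaks and orange bars below them ethylene peaks. Strong colours mark peaks counted for the gene and pale colours other peaks, and the red bar at ACS1 is the stretch repeated in ACS3. Peaks lie inside ACS6 in both lists, inside ACS5 and ACS8 in air, and in none of the other 6 genes.

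The lists differ in what they could call. After removal of duplicates MACS2 used 45582654 H3K9Ac tags against 13726993 control tags for air, and 43572576 against 4354374 for ethylene, and it scaled the H3K9Ac pileups down to match. The scaling factor was 0.301 in the air run and 0.0999 in the ethylene run. An equal fold enrichment thus has a larger p in the ethylene list, and where a peak is missing in ethylene, treatment and control depth cannot be told apart. Beside the tissue label, 5 of 6 genes of dark-grown seedlings or of general use had a peak in air (the exception is PORA) and 0 of 5 flower and seed genes did. In ethylene the counts were 4 of 6 and 0 of 5. The first list includes genes of general use, and PORA had no peak in ethylene either, so these counts do not test growth in the dark. Over all coding genes the shares were 60.9% in air and 46.0% in ethylene. The EIN2 gene itself still carried H3K9Ac, over 913 bp in the air list and 483 bp in the ethylene list, which does not test the mutation.

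The sequences under the summits are shown first for the marked genes, each as 30 bases around the summit read along the gene in TAIR10 coordinates. Every summit lay in a coding exon, and no capitals are used.
ACS6, air, chr4:6864224-6864253, plus strand: ctccggtgacggtcacggcgagaattcctc
ACS6, ethylene, chr4:6864494-6864523, plus strand: acatcagaaggtgtgaatcaattcagtgac
ACS5, air, chr5:26332555-26332584, minus strand: gggatgatccagatgggtctagccgaaaac
ACS8, first air peak, chr4:17752522-17752551, plus strand: cagccaatttccaaagagaaggccaatcca
ACS8, second air peak, chr4:17753578-17753607, plus strand: aacgccggactcttctgttgggttgacatg

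The stretch at the ACS5 summit lies in a part of the coding sequence that all 9 genes share, and corresponding bases of other genes of the family are set beside it. Reads had 51 bases, so these 30 bases do not measure how well reads can be told apart. Capitals mark bases that differ from ACS5. Of the stretches shown, only that of ACS5 lies under a called peak, and both air peaks of ACS8 begin downstream of its stretch. The stretches of ACS2, ACS6 and ACS7 are not shown. That of ACS6 (chr4:6864315-6864344, 8 bases different from ACS5) lies inside both the air and the ethylene peak of ACS6, and ACS2 and ACS7 had no peak.
ACS5, under the air peak: gggatgatccagatgggtctagccgaaaac
ACS8, chr4:17752336-17752365, upstream of both air peaks: ggCatTatccaAatgggtctagcAgaaaaT
ACS9, chr3:18435998-18436027, no peak: gggatTatTcaAatgggtctTgccgaaaaT
ACS4, chr2:9719329-9719358, no peak: ggCatTatccagatgggtctTgcGgaaaaT
ACS11, chr4:4887220-4887249, no peak: gggatTGtTcaAatgggtctTgcTgaaaac
ACS1, chr3:22765566-22765595, no peak: ggAGtTatTcaAatgggtctCgccgaaaaT
ACS3, chr5:10329538-10329567, no peak: ggAGtTatTcaAatgggtctCgccgaaaaT
The type 2 genes differ from ACS5 at 5 or 6 of these 30 bases. ACS1 and ACS3, an annotated pseudogene of the family, are identical here and both differ from ACS5 at 7 bases. Both stretches lie in a repeat of 1964 bases that shares 1606 windows of 51 bases between the 2 places. The lack of a peak at either is therefore less informative than at the other genes shown. Over whole coding sequences, the 36 pairs of the 9 genes were 60.9 to 84.3% identical, with ACS5 and ACS9 the closest pair and ACS4 and ACS8 next at 79.5%.

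The authors used only reads of 51 bases that map to 1 place in the genome. In 8 of the 9 genes the share of 51-base windows that occur once in the genome was 100% after rounding, the marked and 5 of the unmarked genes among them. ACS1 was the exception with 45.9%, and 14.1% from 500 bp before to 1000 bp after its TSS. Its repeated windows, on chromosome 3 between 22764547 and 22766510, occur again on chromosome 5 between 10328519 and 10330482, over the ACS3 pseudogene. The repeated stretch runs from 1463 bp downstream of the TSS to the upstream edge of the window searched. Near the start of ACS1, where a peak would most often lie, few reads could therefore be placed. Further on, 78.9% of windows in the rest of the gene were unique, and no peak was called there in either list.

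ACS6 (AT4G11280, chromosome 4 from 6863979 to 6866116, plus strand), a type 1 gene known for its induction by stress and touch, was marked in both treatments. The ethylene call rested on 1 peak with a fold enrichment of 1.97 and a −log10 q of 1.88, and requiring at least 2 of either left 0 of the 9 genes with a peak in ethylene. Its air peak ran from 6864088 to 6864983, 109 to 1004 bp downstream of the TSS, with a breadth of 896 bp. The summit at 6864239, in exon 1, held 277 tags. In ethylene the peak ran from 6864225 to 6864811, 246 to 832 bp downstream of the TSS, with a breadth of 587 bp and 274 tags at the summit at 6864509, in exon 2. Tags are the deposited pileup divided by the scaling factor of the list, and at most 400 can cover a point. The height of the mark at ACS6 was thus nearly the same in both lists, while the called peak was narrower.

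Corrected for this ceiling and for the tags kept, the ethylene summit of ACS6 held 1.02 times the tags of its air summit (95% interval 0.859 to 1.22, counting error only). The 2 summits lie 270 bp apart, so this compares the tallest points and not 1 position. The median over the 12582 coding genes marked in both lists was 1.04 (quartiles 0.978 and 1.1), so ACS6 lay within the middle range of genes. The fold enrichment at its summit was 2.48 in air and 1.97 in ethylene. It is the scaled pileup plus 1 over the scaled local background plus 1. The added 1 pulls the ratio toward 1 more strongly in ethylene, where the scaling factor was 0.0999 and not 0.301. The background, worked back from the pileup and the fold enrichment, was 110 tags in air and 134 in ethylene.

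The breadth of ACS6 in ethylene was 65.5% of that in air, and the median over the same genes was 65.0% (quartiles 49.5 and 79.2%). The breadth was lower in ethylene at 96.7% of these genes. The ethylene peak of ACS6 lay wholly inside its air peak, as at 85.8% of the 9309 coding genes with 1 peak in each list, with its edges 137 bp and 172 bp further in. The summit moved by 270 bp, which is more than usual, since the median was 27 bp and the summits of 1.83% of these genes lay further apart. Among marked coding genes, ACS6 was broader than 69.3% in air and 66.9% in ethylene, and its summit was higher than that of 51.9% and 40.5%.

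The genes most like ACS6 in these values were PHR2 (AT2G47590), TMT2 (AT4G35300) and AT5G25265, by the sum of absolute log2 differences of breadth and summit tags in the 2 lists. The sums were 0.06, 0.15 and 0.15 over 12581 other genes marked in both. PHR2 had 882 bp and 283 tags in air and 585 bp and 274 tags in ethylene.

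ACS5 (AT5G65800, chromosome 5 from 26330746 to 26332812, minus strand), a type 2 gene that takes part in the ethylene response of dark-grown seedlings to cytokinin, was marked in air only. It was no longer marked with the air peaks limited to the best 12864 by p. Its peak ran from 26331735 to 26332712, 100 to 1077 bp downstream of the TSS, and was 978 bp broad, broader than 86.4% of air peaks. The summit at 26332569, in exon 1 and 243 bp downstream of the TSS, held 158 tags, and 4.68% of air peaks had fewer. A broad but low peak was therefore called. Its fold enrichment was 2.01, over a background of 77.0 tags that lay near the genome-wide floor of MACS2 for this list (76.6 tags), and 1.52% of air peaks had a lower background. In ethylene the nearest peak was 4408 bp upstream, at CGR3 (AT5G65810), with 341 tags.

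ACS8 (AT4G37770, chromosome 4 from 17752079 to 17754157, plus strand), an auxin-inducible type 2 gene, had 2 peaks in air and none in ethylene. Of the 16724 coding genes marked in air, 19.8% had 2 or more peaks. The first ACS8 peak ran from 17752414 to 17752888 (475 bp), with 172 tags at the summit at 17752537, in exon 2 and 458 bp downstream of the TSS. Its fold enrichment of 1.70 was the lowest of the air peaks at ACS genes, and 8.37% of all air peaks had a lower one.

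The second ACS8 peak ran from 17753027 to 17753917 (891 bp) and was the taller one, with 202 tags at 17753593 and a fold enrichment of 2.25. This summit lay in exon 4, 1514 bp downstream of the TSS and in the last exon of the gene. The tallest air summit lay further downstream at 3.18% of marked coding genes, whose median distance was 320 bp. The peaks were 138 bp apart and covered 1366 bp in all, more than at 89.7% of marked coding genes, while 11.6% had a lower tallest summit. In ethylene the nearest peak was 7800 bp upstream, at SQE3 (AT4G37760).

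The 3 air peaks without an ethylene peak were of a height at which most air peaks had none. Of 799 air peaks with tags within 5% of the ACS5 summit, 51 (6.38%) overlapped an ethylene peak. The shares were 127 of 1077 (11.8%) for the first ACS8 peak and 587 of 1544 (38.0%) for the second. For ACS6, 2712 of 3201 (84.7%) did, and over all 18314 air peaks 67.1%. When peaks were matched on fold enrichment as well, an alternative chosen after seeing the data, the shares were 10.9% for ACS5, 9.18% and 45.7% for ACS8 and 83.9% for ACS6. These shares describe the lists and give no test of single genes.

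**Figure D2:**
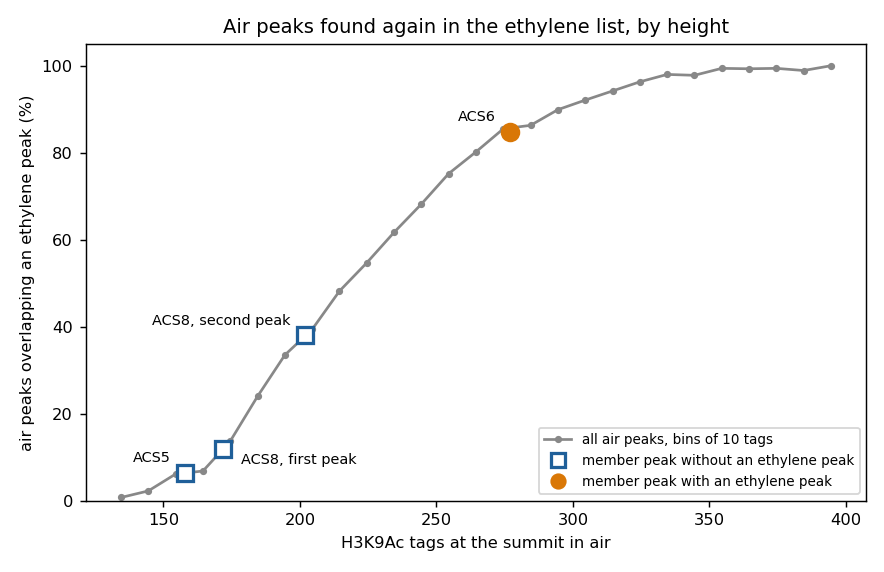
Share of air peaks that overlap an ethylene peak (y axis, percent) by the number of H3K9Ac tags at the air summit (x axis), in bins of 10 tags with at least 20 peaks (grey line). Symbols place the 4 air peaks of ACS genes at the share of air peaks within 5% of their tags. ACS5 and both ACS8 peaks (open squares) lie at 158 to 202 tags, where the shares are 6.38 to 38.0%, and ACS6 (filled circle) lies at 277 tags and 84.7%.

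The 6 genes without a peak in either list differed in how near the closest mark was. For ACS4 (AT2G22810, chromosome 2 from 9717602 to 9719594), an auxin-inducible type 2 gene, the nearest air peak was 1609 bp upstream, at AT2G22820, with 287 tags. This is the closest peak to a gene body among the unmarked members, and it lay outside both the 500 bp and the 1000 bp upstream window. In ethylene a peak at the same place was 1704 bp away, with 272 tags.

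ACS2 (AT1G01480, chromosome 1 from 175706 to 178406), a type 1 gene whose protein is stabilised by MAP kinases, lay between marked neighbours. The nearest air peak was 1970 bp downstream, 1908 bp broad with 364 tags, at AT1G01490. On the upstream side an air peak with 312 tags was 2789 bp away, at LEA14 (AT1G01470). Both neighbours were marked in ethylene too, at 2064 bp and 2918 bp from ACS2. ACS2 was the 1 coding gene wholly inside the unmarked stretch of 7458 bp in air.

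ACS9 (AT3G49700, chromosome 3 from 18434449 to 18436141), the type 2 gene closest to ACS5 in coding sequence, had its nearest air peak 1977 bp upstream, a low one of 160 tags at AT3G49710. No ethylene peak was called there, and the nearest in ethylene was 11072 bp away. The pair with 84.3% identical coding bases thus differed in air, with a peak of 978 bp at ACS5 and none at ACS9, and neither was marked in ethylene.

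ACS7 (AT4G26200, chromosome 4 from 13275200 to 13277188), the type 3 gene, was 4795 bp from the nearest air peak and 4783 bp from the nearest ethylene peak, both downstream at AT4G26210. ACS1 (AT3G61510, chromosome 3 from 22763495 to 22766010), whose protein is inactive as a homodimer, was 3498 bp from the nearest air peak and 3713 bp from the nearest ethylene peak, at AT3G61490. Among coding genes without a peak the median distance to the nearest one was 2294 bp in air and 3097 bp in ethylene, so ACS2, ACS4 and ACS9 were nearer than the median in air and ACS1, ACS7 and ACS11 further away.

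ACS11 (AT4G08040, chromosome 4 from 4886962 to 4889224) stood in the largest unmarked stretch of the members. Its nearest peak was 19411 bp upstream in air and 19615 bp upstream in ethylene, and 94.1% and 94.0% of unmarked coding genes had a nearer one. The stretch without a peak around it covered 169360 bp in air, with 3 coding genes wholly inside, and 23 of 18309 such stretches in the genome were longer (median 3282 bp). In ethylene it covered 169587 bp, with 26 of 12859 longer. The air peaks that bound the stretch were themselves 14818 bp and 30980 bp from the nearest coding gene. The share of unique 51-base windows was counted over the window of ACS11 and not over the whole stretch.

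**Figure D3:**
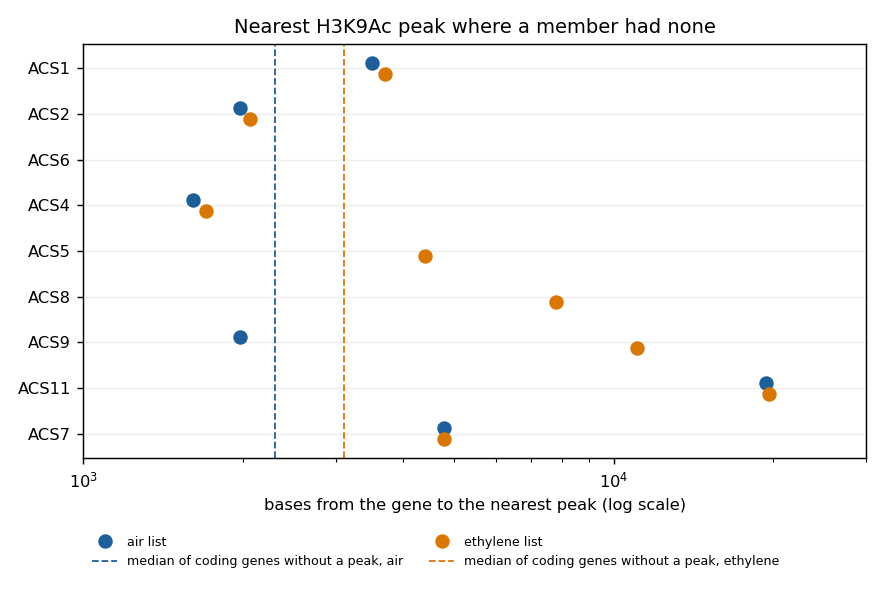
Distance from the gene body to the nearest peak in bases (x axis, log scale) for members without a peak in the air list (blue) or in the ethylene list (orange). Dashed lines are the medians of all coding genes without a peak, 2294 bp in air and 3097 bp in ethylene. ACS11 lies furthest out at 19411 bp and 19615 bp, and the ethylene point of ACS9 lies at 11072 bp although its air point lies at 1977 bp.

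By the same rule, most genes of the other steps of ethylene biosynthesis had a peak in air, and the ACC oxidase genes were mostly without one in ethylene. Over all coding genes the shares were 60.9% in air, 46.0% in ethylene and 45.8% in both lists. The gene lists were chosen with earlier results of these data known. All 4 S-adenosylmethionine synthetase genes, which supply the substrate of ACC synthase, had a peak in both lists, with 509 to 1070 bp in air, and the broadest was MTO3 (AT3G17390), at 1070 bp and 534 bp in ethylene. All 6 genes of methionine salvage, which recycles the sulfur-containing side product of the ACC synthase reaction, were marked in both lists, the broadest being AT5G53850 with 1047 bp and 851 bp. All 6 genes for regulators of ACS protein were marked in both. MPK3 (AT3G45640), a MAP kinase that phosphorylates ACS2 and ACS6, was covered over 1933 bp in air and 1455 bp in ethylene. ETO1 (AT3G51770), which targets type 2 enzymes for degradation, had 931 bp and 910 bp.

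ACS10 (AT1G62960) and ACS12 (AT5G51690), relatives that act as aminotransferases and not as ACC synthases, were both marked in both lists, with 730 bp and 485 bp in air. Of the 5 ACC oxidase genes, 4 were marked in air and 1 in ethylene. The gene marked in both was EFE (AT1G05010), also the tallest of them, with 318 tags in air and 322 in ethylene, and its breadth was 1295 bp and 276 bp. AT1G12010 had no peak in either list. Of the 23 genes outside the ACC synthases, 22 were marked in air and 19 in ethylene, beside 60.9% and 46.0% of all coding genes. The genes marked in air only were ACC oxidases.

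**Figure D4:**
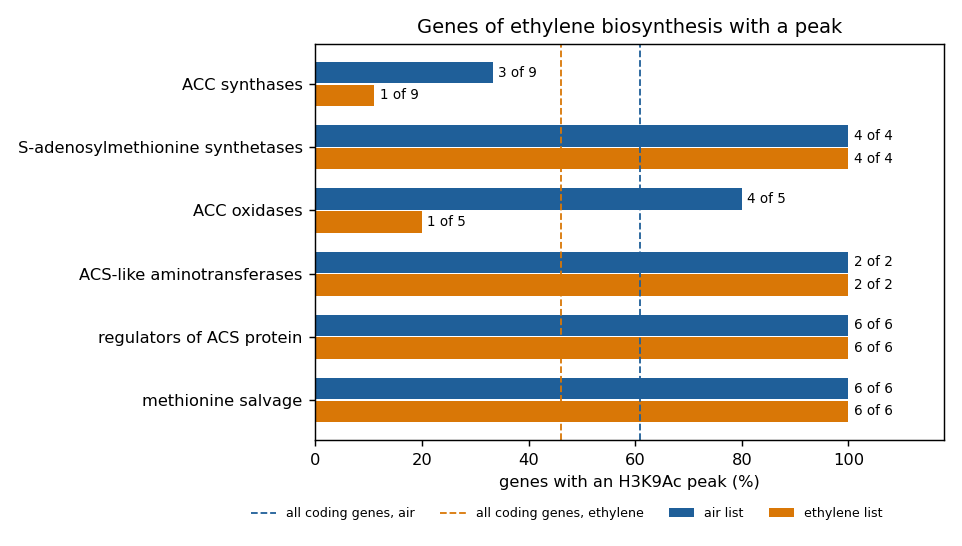
Share of genes with an H3K9Ac peak (x axis, percent, from 0) for the ACC synthases and 5 lists of related genes, in air (blue) and ethylene (orange), with the number of genes beside each bar. Dashed lines are all coding genes, 60.9% in air and 46.0% in ethylene. ACC synthases lie below both lines with 3 and 1 of 9, and 4 of the other lists lie at all of their genes.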

How the data were processed

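Per the labels and the study's methods, the authors mapped 51-base reads to TAIR10 with Bowtie 1.1.2, kept uniquely mapped reads, merged both H3K9Ac libraries per treatment and ran MACS2 2.1.0.20150603 at p = 0.01 without a model, extending tags to 200 bp and keeping 1 tag per position and strand. The deposited values are the pileup signal at the summit, scaled to the control, the fold enrichment, which is a ratio, and p-values and q-values on the −log10 scale. The q-values served only as a stricter threshold, and the file header says they are not calculated.

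Gene models were those of TAIR10.1 (TAIR and Araport). Python 3.11.15, numpy 2.4.6, pandas 2.3.3 and Biopython 1.88 were used. Tags were whole numbers within 0.05. Steps were tested on simulated data. The TAIR10.1 reference is taken to hold the nuclear sequence of TAIR10. Members, lists and the rule for named genes (all members, the broadest and the unmarked genes of each list, owners of nearest peaks, and the genes most like a member marked in both) were chosen with earlier results of these data known. A gene that this rule names is not reported here. ETO1, EFE, ACS12, ACS3 and EIN2 fall outside this rule and were named after their values were seen. Protein comparisons were not made here.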

Additional observations from a re-analysis of the deposited data

How the results depend on the processing

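Of 29 alternatives for the counts of marked members, 25 gave counts within 1.5 times. At a fold enrichment of at least 2, and likewise at a −log10 q of at least 2, 0 members instead of 1 had a peak in ethylene and 0 instead of 1 in both lists, because ACS6 has 1.97 and 1.88 there, while 3 remained marked in air (coding genes 49.8% in air and 33.9% in ethylene at the first threshold, 59.9% and 31.6% at the second). With the air list reduced to the 12864 peaks of lowest p, ACS5 lost its peak and 2 members (48.3% of coding genes) were marked. Other windows and ties of peaks to genes gave the same members. The ratio of fold enrichments at ACS6 was 0.794 where the tag ratio was 1.02. Fold enrichments, and the threshold of 2 on them, depend in part on the scaling of each list, because 1 is added after scaling. No paired analysis was possible because each deposited list pools both libraries of a treatment, which also prevents leaving out a replicate.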

Other observations

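In the promoters of the 9 genes (250 bases before to 50 after the TSS, read on both strands), the letters TATAAA occurred in 5 (ACS1, ACS2, ACS4, ACS8 and ACS9), beside 52.1% of all 27444 coding gene promoters. CACGTG occurred in 0 of the 9 (7.68% of all) and GCCGCC in 0 (2.57% of all). A match is a description of the letters and not of binding.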
